A study of Mus musculus with 12 samples.

Results

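Natural killer (NK) cells kill other cells with proteases stored in cytotoxic granules, and they carry inhibitors that act on those proteases. The genes described here are 10 of this machinery, taken by symbol from the deposited table: the serpins Serpinb9, Serpinb9b, Serpinb6a, Serpinb6b, Serpina3f and Serpina3g, the cystatin Cst7, and the cathepsins Ctsc, Ctsw and Ctsl. All 10 were found among the 55487 features of the table, and all 10 were among the 12364 genes that passed the filter on low values (log2 CPM above 0 in 4 or more of the 12 samples). CPM stands for counts per mega reads of a library, that is reads scaled to a common library total. RNA came from mouse NK cells of the B6.129S4-Ifngtm3.1Lky/J strain. All samples are labelled mut/mut as their genotype, and the strain reports interferon gamma expression by yellow fluorescent protein (YFP). Every title also carries HD IL-15, for priming with interleukin 15. The cells were unstimulated (4 samples, no time given), or were treated with anti-NK1.1, an antibody to an activating receptor of NK cells, for 6 h and taken as YFP- (4 samples) or YFP+ (4 samples). The labels give no age, no pooling of animals and no sort gates. The replicate labels f2, m2, m3 and m4 occur once in each group. Nothing in the labels says that the samples came from separate mice, so the p-values below measure the spread between these samples, which may in part be technical.

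Serpins are inhibitors that a target protease cleaves and that then trap it in a covalent complex. Clade B serpins stay inside the cell, where they act on granule proteases that leak into the cytosol, and Serpinb9 is the classical inhibitor of granzyme B. Cathepsins are lysosomal proteases, cystatins inhibit cysteine cathepsins, and cathepsin C removes the dipeptide that keeps granzymes inactive, so inhibitors, activators and effectors of one granule are read side by side.

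The libraries held 32.1 to 54.2 M (mega) reads, and 3 reads, taken as the floor, corresponded to 0.0553 to 0.0933 CPM. Ifng, which the reporter follows, lay between 3.66 and 4.19 CPM in unstimulated samples, between 36.6 and 54.5 CPM in the YFP- group and between 304 and 343 CPM in the YFP+ group. All 7 NK cell markers passed the filter. Their summed level spanned 3482 to 4021 CPM without stimulation. For the YFP+ libraries this sum was 3330 to 3824 CPM. Every YFP- library lay below all libraries of the other groups, with sums from 2432 to 3035 CPM. The sum does not show how single NK cell markers moved. Eomes fell from 101.5 to 114.8 CPM in unstimulated libraries to 57.5 to 84.3 in YFP- and 38.3 to 43.0 in YFP+ libraries. Ncr1 was at least 243.8 CPM in unstimulated libraries and at most 137.6 CPM in YFP+ libraries. Klrk1 went the other way, from 183.3 to 195.1 CPM in unstimulated to 209.5 to 274.0 CPM in YFP+ libraries. Of 7 T cell markers 4 passed (Cd3d, Cd3g, Trac and Trbc1). The sum of the 7 was 378 to 410 CPM in unstimulated cells, 515 to 578 CPM in YFP- cells and 540 to 648 CPM in YFP+ cells. Cd4 and Cd8a were under 1 CPM in every library and Cd3e at most 1.49 CPM, so the 4 that passed carried nearly all of this sum. Of 6 macrophage or monocyte markers 2 passed (Cd14 and Cd68), while Lyz2, Csf1r, Adgre1 and Fcgr1 were under 1 CPM in every library. The sums of the 6 were 53.0 to 60.2, 27.4 to 44.4 and 14.7 to 24.0 CPM in the same order. Of 4 dendritic cell markers 2 passed (Zbtb46 and Xcr1), and Flt3 and Siglech were under 1 CPM in every library. The sums of the 4 were 2.16 to 3.57, 18.8 to 22.0 and 7.05 to 13.5 CPM in the same order. Neutrophil markers summed to at most 1.82 CPM (0 of 5 passed, S100a9 at 0 in all libraries). The part of these markers in the results was not tested. The share of reads on rRNA-like features (ribosomal RNA genes and repeats like them) spanned 27.4 to 35.3% in the unstimulated group, 15.9 to 30.3% in the YFP- group and 13.7 to 29.8% in the YFP+ group. In each group the library with the highest share also gave the lowest level of most of the 10 genes: m4 in 6 of 10 in the unstimulated group, m3 in 8 of 10 in YFP- and m3 in 7 of 10 in YFP+. Differences of the 10 genes that changed sign or call without YFP+ m3 are given both ways.

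Of the genes, 6 sit in 2 serpin clusters. Serpinb6b, Serpinb9 and Serpinb9b follow each other on the plus strand of GRCm38 chromosome 13, with 24.2 kb between the first pair and 9.5 kb between the second, and Serpinb6a lies 876 kb further on, on the minus strand. Of 15 protein-coding Serpinb genes of that cluster 7 passed the filter, 4 of them members. Serpina3f and Serpina3g are 15.1 kb apart on the plus strand of chromosome 12, and of 10 protein-coding Serpina3 genes there, these 2 alone passed the filter.

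The upstream sequence of the neighbouring pairs is shown because the genes of each pair were called in the same directions in the same comparisons below. The sequences are the 250 bases before the RefSeq start site (GRCm38.p6, plus strand), and capitals mark matches to the motifs searched. RefSeq start sites can differ from the gene positions given further below. The Serpinb9 window lies inside the gene by those positions, which start at 33003250. The Serpina3g window ends at 104236146, short of the gene start at 104236245.
Serpina3f, chr12:104214294-104214543: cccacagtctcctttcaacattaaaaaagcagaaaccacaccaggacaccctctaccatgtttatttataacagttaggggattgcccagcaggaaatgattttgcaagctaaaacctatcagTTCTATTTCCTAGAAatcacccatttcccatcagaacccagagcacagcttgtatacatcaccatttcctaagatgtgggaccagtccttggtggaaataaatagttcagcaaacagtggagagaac
Serpina3g, chr12:104235897-104236146: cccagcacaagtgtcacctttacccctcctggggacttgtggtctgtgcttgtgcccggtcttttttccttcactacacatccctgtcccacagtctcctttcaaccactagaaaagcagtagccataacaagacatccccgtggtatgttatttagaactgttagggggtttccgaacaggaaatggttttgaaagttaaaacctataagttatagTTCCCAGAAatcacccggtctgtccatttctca
Serpinb9, chr13:33004291-33004540: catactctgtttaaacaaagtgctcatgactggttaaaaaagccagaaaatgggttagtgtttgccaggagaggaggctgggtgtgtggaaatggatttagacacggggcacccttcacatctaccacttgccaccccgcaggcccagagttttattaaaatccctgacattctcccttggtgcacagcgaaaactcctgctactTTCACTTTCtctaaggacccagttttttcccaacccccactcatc
Serpinb9b, chr13:33027164-33027413: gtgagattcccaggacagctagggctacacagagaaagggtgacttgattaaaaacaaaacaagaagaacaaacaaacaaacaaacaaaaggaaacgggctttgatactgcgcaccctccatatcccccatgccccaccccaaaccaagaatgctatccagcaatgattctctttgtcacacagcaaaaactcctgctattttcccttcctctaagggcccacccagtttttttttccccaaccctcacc

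In all, 6 motifs were searched on both strands of the 250 bases: a STAT-type motif (TTCNNNGAA), an IRF-type motif (GAAANNGAA), AP-1 (TGACTCA or, the same on the other strand, TGAGTCA), CRE (TGACGTCA), an NR4A-type motif (AAAGGTCA) and the E-box (CACGTG). They occurred in 7.02%, 7.13%, 4.46%, 1.55%, 1.34% and 6.02% of all 32851 RefSeq windows of this length. Serpina3f held a STAT-type match at position -121 (its first base, counted from the start site) and an IRF-type match at -127, and these overlap, so that 1 capital run covers both. Serpina3g held a STAT-type match at -33. Serpinb9 held an IRF-type match at -45, and Serpinb9b held no match to any of the 6 motifs. Windows were found for 9 of the 10 genes, 11 in all, since Serpina3f and Serpinb6a each had a second start site. The second Serpina3f window, not printed, held the same letters at -210 (STAT-type) and -216 (IRF-type). Outside these pairs, Serpinb6a held a STAT-type match at -77 and an overlapping IRF-type match at -83 in its first window. Its second window held no match. Ctsc held a STAT-type match at -236 and Ctsl an E-box at -236, while Cst7 and Serpinb6b held no match. So matches also occurred in genes that were called in other directions or not at all. A match is a description of these letters and not evidence of a binding site.

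Anti-NK1.1 treatment for 6 h went with higher RNA of most of the inhibitors. In YFP- samples 7 of the 10 genes were higher than in unstimulated samples (Serpinb9, Serpinb9b, Serpinb6b, Serpina3f, Serpina3g, Cst7 and Ctsl) and 0 were lower, in a limma fit over all 12364 genes at a Benjamini-Hochberg adjusted p under 0.05. Serpinb6a, Ctsc and Ctsw did not pass. Ctsl had passed the filter on low values only through the stimulated samples. Over all genes, 51.1% were called in this comparison, 30.2% higher and 20.9% lower. The median log2 difference was 1.15 for the 10 genes and 0.14 for all genes.

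In YFP+ samples against unstimulated samples, 5 genes were higher (Serpinb9, Serpinb9b, Serpinb6b, Cst7 and Ctsl) and 2 were lower (Serpinb6a and Ctsw), while Serpina3f, Serpina3g and Ctsc did not pass. The background was 60.8% called, 27.5% higher and 33.3% lower, and the median log2 difference was 0.46 for the 10 genes against -0.03 for all.

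Between the 2 sorted populations, 1 gene was higher in YFP+ (Serpinb6b) and 4 were lower (Serpinb6a, Serpina3f, Serpina3g and Ctsw), with 5 not called. Of all genes, 21.8% were called, 3.28% higher and 18.5% lower, and the median was -0.23 for the 10 genes and -0.19 for all genes. The 3 comparisons share samples, so they are not independent of each other. In bulk RNA a lower level in each cell cannot be told apart from fewer cells that express the gene.

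The low median of all genes in the last comparison moved with 3 of the 4 other scalings of the samples tried. Of the genes called, 405 were higher and 2286 lower as deposited, against 1252 and 1631 with trimmed-mean scaling, 1505 and 1491 with each sample centred on its median, and 1163 and 1430 with quantile normalization. With rRNA-like reads taken out of the totals the split stayed at 443 higher and 2684 lower, with a median of -0.20. The median over all genes moved from -0.19 to 0.07 with centring. Relative to the median of all genes as deposited, the 5 called genes stood at 0.74 (Serpinb6b), -0.34 (Serpinb6a), -1.69 (Serpina3f), -1.11 (Serpina3g) and -0.61 (Ctsw). For YFP- against unstimulated samples the split was 3735 higher and 2586 lower as deposited and 3072 and 3446 when rRNA-like reads were taken out of the totals.

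**Figure D1:**
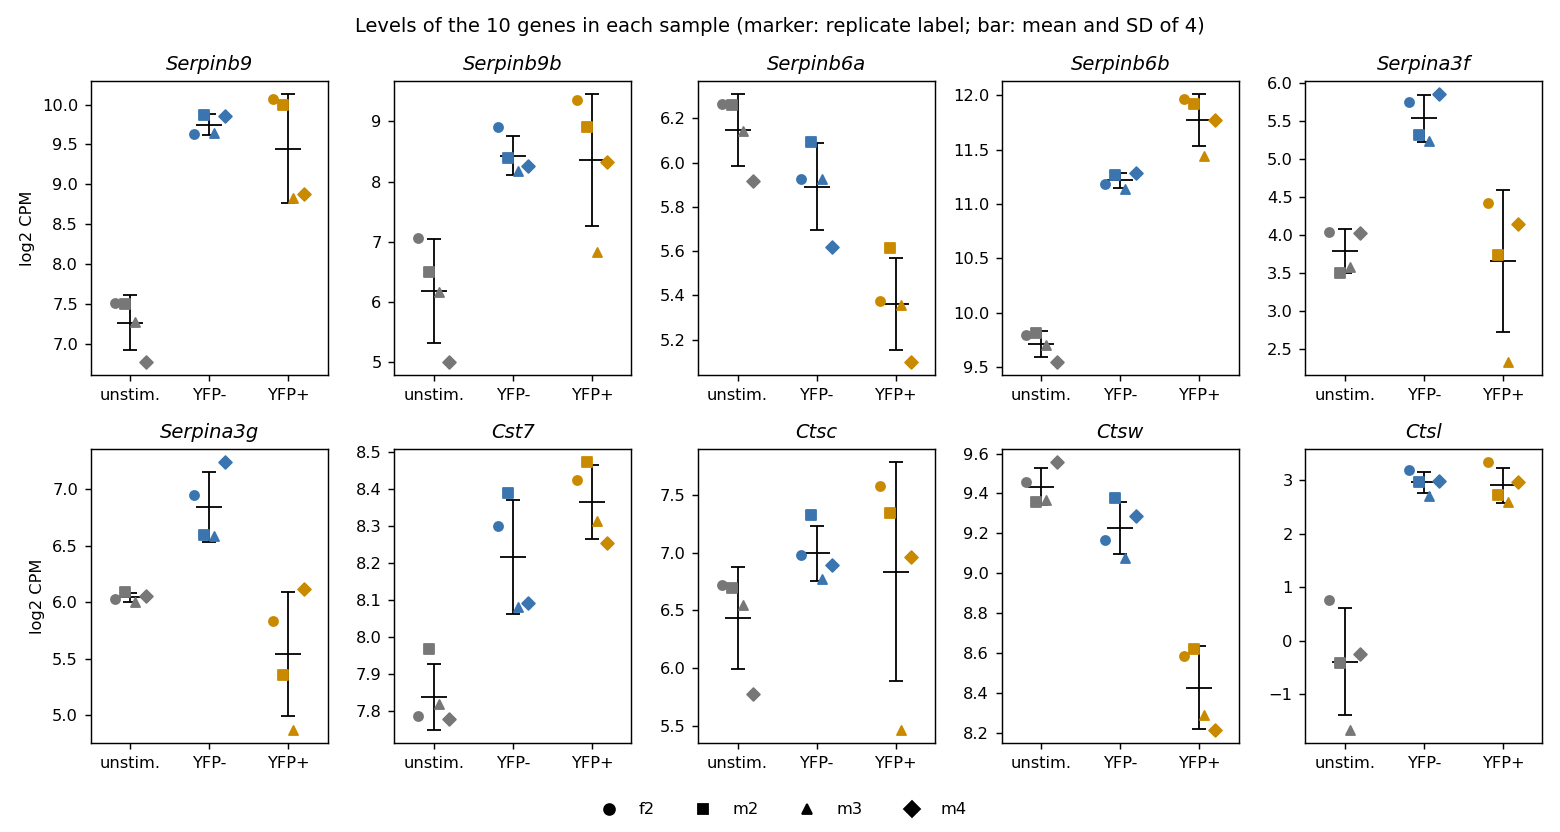
Log2 CPM of each gene (vertical axes, one panel per gene with its own range) in the unstimulated, YFP- and YFP+ samples. Each marker is 1 sample with its shape giving the replicate label, and bars give the mean and SD of 4 samples. Serpinb6b rises from 9.71 to 11.22 and 11.77, while Serpina3f is high in YFP- samples alone (5.54, against 3.79 and 3.66), and YFP+ m3 lies at the bottom of its group in 7 of 10 panels.

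Serpinb9 (ENSMUSG00000045827; GRCm38 chromosome 13, 33003250 to 33017957, plus strand, protein coding), the granzyme B inhibitor, was at 182, 180, 155 and 109 CPM in the unstimulated samples f2, m2, m3 and m4. The YFP- samples, in the same order, gave 789, 934, 800 and 924 CPM. YFP+ samples gave 1078, 1022, 454 and 472 CPM, so f2 and m2 were above every YFP- sample and m3 and m4 below every one. Every stimulated sample was above every unstimulated one. The log2 difference of YFP- from unstimulated samples was 2.49 (SE 0.27, limma adjusted p = 7.69e-06), a 5.60-fold rise, and that of YFP+ was 2.18 (SE 0.27, limma adjusted p = 1.08e-05), a 4.54-fold rise. YFP+ minus YFP- was -0.30 (95% interval -0.89 to 0.28, limma adjusted p = 0.463), and the interval holds differences in either direction.

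Serpinb9b (ENSMUSG00000021403; chromosome 13, 33027416 to 33041884, plus strand), the closest relative of Serpinb9 among these genes, had 133, 90.1, 71.5 and 32.0 CPM in unstimulated samples. Its levels were 480, 335, 289 and 307 CPM in YFP- and 655, 478, 114 and 319 CPM in YFP+ samples. YFP- samples were all above the unstimulated ones, and among YFP+ samples m3 fell below unstimulated f2. The rises were 2.26 (SE 0.49, limma adjusted p = 0.00173) in YFP- and 2.18 (SE 0.49, limma adjusted p = 0.00153) in YFP+ samples on the log2 scale. YFP+ minus YFP- was -0.08 (95% interval -1.13 to 0.97, limma adjusted p = 0.924), and it became 0.42 (limma adjusted p = 0.497) without YFP+ m3.

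Serpinb6b (ENSMUSG00000042842; chromosome 13, 32965209 to 32979067, plus strand), an inhibitor of mouse granzyme A, was the most abundant of the 10 genes. It was at 886, 898, 833 and 747 CPM in unstimulated, 2326, 2462, 2261 and 2500 CPM in YFP-, and 3994, 3870, 2783 and 3494 CPM in YFP+ samples. The 3 groups did not overlap. The log2 difference was 1.51 (SE 0.12, limma adjusted p = 3.89e-07) for YFP- and 2.06 (SE 0.12, limma adjusted p = 9.07e-09) for YFP+ against unstimulated samples. Between the sorted groups YFP+ was 0.55 higher (SE 0.12, limma adjusted p = 0.00387), or 1.47-fold, and 0.66 higher without YFP+ m3. That call was kept under the other settings tried except in a fit of all 55487 features with no filter (limma adjusted p = 0.123).

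Serpinb6a (ENSMUSG00000060147, chromosome 13, 33917918 to 34002794, minus strand) encodes an inhibitor of cathepsin G. In YFP+ against unstimulated samples it was lower, while Serpinb9, Serpinb9b and Serpinb6b were higher. Its levels were 76.9, 76.6, 70.7 and 60.5 CPM in unstimulated, 60.9, 68.2, 60.8 and 49.2 CPM in YFP-, and 41.5, 48.9, 41.0 and 34.3 CPM in YFP+ samples. Every YFP+ sample was below every sample of the other groups, and YFP- and unstimulated samples overlapped. YFP+ was lower than unstimulated by 0.79 on the log2 scale (log2 difference -0.79, SE 0.14, limma adjusted p = 0.000305). It was lower than YFP- by a log2 difference of -0.53 (SE 0.14, limma adjusted p = 0.0173). This last call was lost with quantile normalization (-0.35, limma adjusted p = 0.0746), median centring (-0.27, 0.143) and trimmed-mean scaling (-0.32, 0.0837), with no filter (0.0728), at a threshold of 0.01, and without the samples labelled f2, m2 or m3 (limma adjusted p = 0.0786, 0.0544 and 0.0727). YFP- minus unstimulated was -0.26 (limma adjusted p = 0.151), and passed as lower under those 3 scalings (-0.51, -0.39 and -0.37) and when rRNA-like reads were taken out of the totals (-0.44), and with sample weights (-0.30, limma adjusted p = 0.0498). Of its distinct 150-base exon stretches 15.96% also occur in another gene, 9.84% in Nqo2 on the opposite strand, so that part of its reads cannot be told apart from those of its neighbours unless strand was used in counting, which is not given in the sources used here. Nqo2 itself was at 19.8 to 22.9, 9.83 to 12.3 and 6.84 to 9.51 CPM in the 3 groups.

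Serpina3g (ENSMUSG00000041481; chromosome 12, 104236245 to 104241939, plus strand), known as an inhibitor of lysosomal cathepsins that reach the cytosol, was at 65.1, 67.9, 64.1 and 66.3 CPM in unstimulated samples. Among YFP- samples it was at 123, 96.4, 96.3 and 151 CPM, and among YFP+ samples at 57.0, 41.0, 29.2 and 69.4 CPM. YFP- samples were above all others, and YFP+ samples overlapped the unstimulated ones through m4 alone. YFP- exceeded unstimulated by 0.80 (SE 0.23, limma adjusted p = 0.0103), a call lost without the samples labelled f2 (limma adjusted p = 0.0525) and with no filter (0.0881). YFP+ minus YFP- was -1.30 (SE 0.23, limma adjusted p = 0.00133), a level 2.46-fold lower. YFP+ minus unstimulated was -0.50 (95% interval -0.99 to -0.003, limma adjusted p = 0.0759). That difference passed with quantile normalization (-0.59, limma adjusted p = 0.0199), with rRNA-like features left out (-0.69, 0.0107), with sample weights (-0.53, 0.0118) and without the samples labelled m4 (-0.68, 0.0265), and was -0.27 (0.223) without YFP+ m3.

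Serpina3f (ENSMUSG00000066363; chromosome 12, 104214544 to 104221129, plus strand), its neighbour in the same serpin clade, was also highest in YFP- samples. The unstimulated samples had 16.5, 11.3, 12.0 and 16.2 CPM, the YFP- samples 53.9, 39.7, 37.7 and 57.6 CPM, and the YFP+ samples 21.4, 13.3, 5.03 and 17.7 CPM. YFP- samples were above all 8 others, which overlapped each other. The log2 difference was 1.75 (SE 0.36, limma adjusted p = 0.00113) for YFP- against unstimulated and -1.88 (SE 0.36, limma adjusted p = 0.00211) for YFP+ against YFP-. The second was -1.44 (limma adjusted p = 0.000451) without YFP+ m3. YFP+ minus unstimulated was -0.13 (95% interval -0.89 to 0.64, limma adjusted p = 0.776), and 0.31 (0.219) without YFP+ m3. Of the distinct 150-base exon stretches of Serpina3f and Serpina3g 0% occur in another gene, and of 50-base stretches 10.57% and 15.5% do, with Serpina3g (6.03%) and Serpina3h (8.89%) sharing most.

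Cst7 (ENSMUSG00000068129; chromosome 2, 150570415 to 150578944, plus strand) encodes cystatin F, a cystatin of the granule pathway that inhibits cathepsin C. It was at 221, 250, 226 and 219 CPM in unstimulated, 315, 336, 271 and 273 CPM in YFP-, and 344, 355, 318 and 305 CPM in YFP+ samples. Both stimulated groups were above every unstimulated sample, and they overlapped each other. The rises were the smallest that passed among the 10 genes, 0.38 (SE 0.10, limma adjusted p = 0.00826) in YFP- and 0.53 (SE 0.10, limma adjusted p = 0.000605) in YFP+ samples. The first was lost with quantile normalization (0.11, limma adjusted p = 0.303), with rRNA-like features left out (0.20, 0.0723) and without the samples labelled f2 (0.33, 0.0645). YFP+ minus YFP- was 0.15 (95% interval -0.08 to 0.38, limma adjusted p = 0.335), and passed with median centring (0.41, 0.00424) and trimmed-mean scaling (0.36, 0.00828).

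Ctsc (ENSMUSG00000030560; chromosome 7, 88278085 to 88310888, plus strand), the activator of progranzymes, did not pass in any of the 3 comparisons. Unstimulated samples gave 106, 103, 93.2 and 54.8 CPM, YFP- samples 126, 160, 109 and 119 CPM, and YFP+ samples 190, 162, 44.1 and 124 CPM. YFP- samples were all above the unstimulated ones, while the YFP+ group held both the highest and the lowest sample of all 12. YFP- minus unstimulated was 0.56 (95% interval -0.24 to 1.35, limma adjusted p = 0.222), and the spread behind it was shared with the YFP+ group: in a fit of those 8 samples alone the adjusted p was 0.0257 (limma), and in the fit without YFP+ m3 it was 0.0351. YFP+ minus unstimulated was 0.40 (limma adjusted p = 0.368), and 0.86 (0.00439) without YFP+ m3. YFP+ minus YFP- was -0.16 (95% interval -0.95 to 0.64, limma adjusted p = 0.792), and 0.30 (0.407) without that sample.

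Ctsw (ENSMUSG00000024910; chromosome 19, 5465043 to 5468507, minus strand), a cathepsin expressed chiefly in NK cells and cytotoxic T cells, was lower in YFP+ samples. It was at 702, 656, 660 and 753 CPM in unstimulated, 575, 664, 540 and 624 CPM in YFP-, and 384, 394, 313 and 297 CPM in YFP+ samples. YFP+ samples were below all 8 others, and the other groups overlapped. The log2 difference of YFP+ was -0.80 from YFP- (SE 0.12, limma adjusted p = 0.000329) and -1.01 from unstimulated samples (SE 0.12, limma adjusted p = 5.31e-06), a level 2.01-fold lower. Neither call was lost under any of the 17 other settings. YFP- minus unstimulated was -0.21 (limma adjusted p = 0.151), and passed as lower with quantile normalization (-0.33), median centring (-0.35), trimmed-mean scaling (-0.32) and rRNA-like features left out (-0.39).

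Ctsl (ENSMUSG00000021477; chromosome 13, 64359337 to 64370890, minus strand), a lysosomal endopeptidase, was the least abundant of the 10 genes and had the largest rise among them on the deposited log2 scale. Unstimulated samples gave 1.68, 0.737, 0.301 and 0.832 CPM, from 12 to 64 reads per library. Of these, f2 alone had a log2 CPM above 0 (0.76), so Ctsl passed the filter through the stimulated samples, where it was high. YFP- samples gave 9.10, 7.84, 6.54 and 7.95 CPM and YFP+ samples 10.1, 6.58, 6.05 and 7.81 CPM. All 8 stimulated samples were above the unstimulated ones and the sorted groups overlapped. The rise was 3.36 (SE 0.38, limma adjusted p = 1.08e-05), or 10.3-fold, in YFP- and 3.30 (SE 0.38, limma adjusted p = 5.51e-06), or 9.85-fold, in YFP+ samples. Both calls were kept in the fit with no filter (limma adjusted p = 0.000632 and 0.00037). The low unstimulated levels make the size depend on the scale: with 1 CPM added to every value the rises were 2.26 and 2.21, and that in YFP- samples was then below the rise of Serpinb9 (2.48). YFP+ minus YFP- was -0.06 (95% interval -0.88 to 0.76, limma adjusted p = 0.927), and 0.042 (0.962) without YFP+ m3. Of its 150-base exon stretches 21.77% also lie in the antisense gene Gm47123, and 395 exon bases are shared with the same-strand pseudogene Gm49230. Both were at 0 reads in all 12 libraries. How reads on shared bases were counted is not given, so it cannot be told whether Ctsl lost reads there. Of the marker sums given above, that of dendritic cells was also higher in all stimulated samples than in unstimulated ones and that of macrophages or monocytes was lower, and their part in the Ctsl values was not tested.

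**Figure D2:**
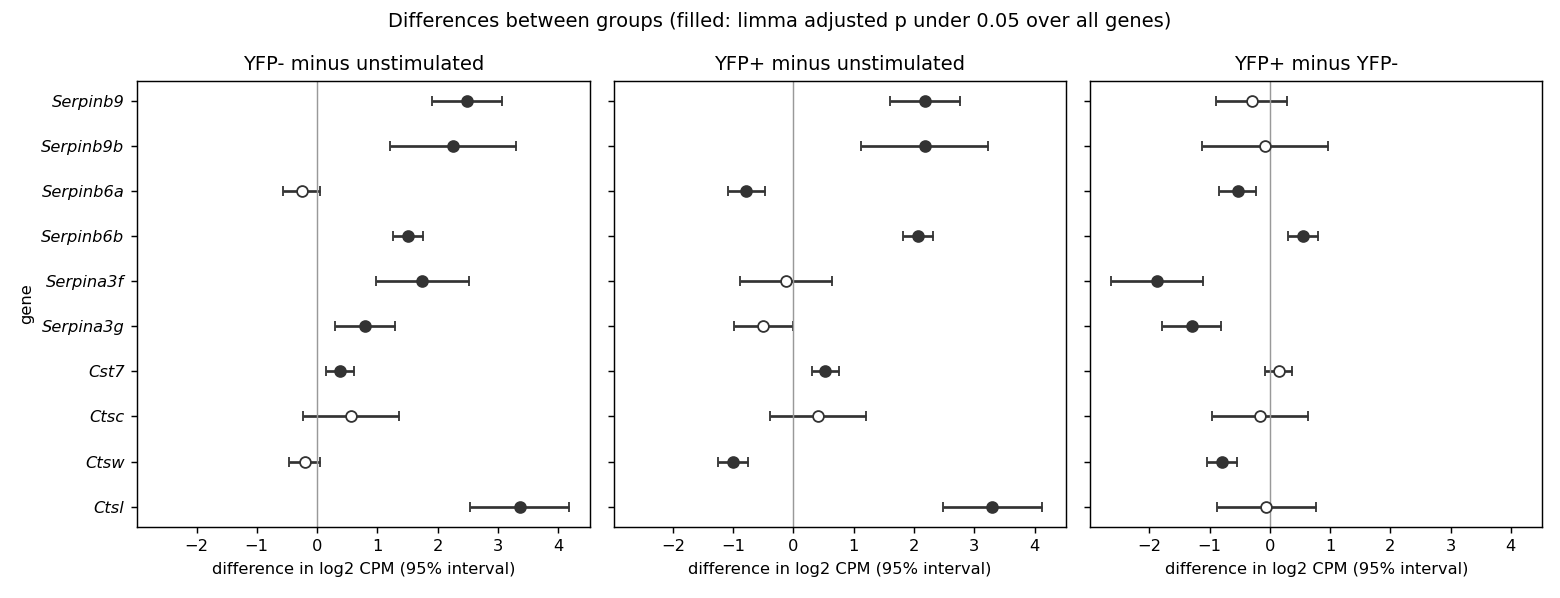
Differences in log2 CPM of the 10 genes with 95% intervals (horizontal axis) in the 3 comparisons, filled where the limma adjusted p over 12364 genes was under 0.05. Serpinb9, Serpinb9b, Serpinb6b, Cst7 and Ctsl lie right of 0 against unstimulated samples in both sorted groups, and Serpina3f and Serpina3g lie right of 0 in YFP- (1.75 and 0.80) and left of 0 between the sorted groups (-1.88 and -1.30).

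Levels can be compared between genes after division by exon length. Serpinb6b was first in each group, at 372 ± 30.4 CPM per kb (SD, n = 4) without stimulation, 1055 ± 49.7 in YFP- cells and 1563 ± 241 in YFP+ cells, and Ctsl last, at 0.137 ± 0.0888, 1.21 ± 0.161 and 1.18 ± 0.277 CPM per kb. In unstimulated samples the order was Serpinb6b, Ctsw (367 ± 23.9), Cst7 (232 ± 14.7), Serpinb9 (44.8 ± 9.75), Serpina3g (31.3 ± 0.785), Serpinb9b (24.4 ± 12.5), Ctsc (15.4 ± 4.05), Serpinb6a (13.2 ± 1.42), Serpina3f (6.12 ± 1.20) and Ctsl. The ranges of the first pair overlapped, as did those of each neighbouring pair from Serpinb9 to Serpinb6a. Among YFP- samples Ctsw (318 ± 29.0) and Cst7 (303 ± 32.5) overlapped, Serpinb9 came next at 247 ± 22.2 CPM per kb, and Serpinb9b at 105 ± 26.0 stood apart from its neighbours in that order. Among YFP+ samples Cst7 was second at 335 ± 23.2, and Ctsw, at 184 ± 26.0 CPM per kb, overlapped Serpinb9 at 216 ± 97.2 and Serpinb9b at 117 ± 68.7.

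Granzymes that some of these inhibitors act on, and perforin, were measured in the same libraries. Gzmb (granzyme B) averaged 6165 ± 714 CPM (SD, n = 4) without stimulation, 12849 ± 909 in YFP- cells and 24088 ± 3050 in YFP+ cells, and rose in all 3 comparisons (log2 difference 1.06 for YFP- and 1.97 for YFP+ against unstimulated, and 0.90 between the sorted groups, limma adjusted p = 5.24e-06, 9.57e-09 and 9.89e-05). Gzma (granzyme A) fell, from 8603 ± 773 CPM to 4483 ± 577 in YFP- and 4412 ± 387 in YFP+ samples (log2 difference -0.95 and -0.96, limma adjusted p = 1.34e-05 and 4.98e-06). Serpinb6b, its inhibitor, rose in the same samples. Prf1 (perforin) did not pass in any comparison, at 2559 ± 593, 3424 ± 739 and 4010 ± 1783 CPM, and its difference between YFP+ and unstimulated samples passed with median centring, trimmed-mean scaling and without YFP+ m3.

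Ratios of 2 genes within a sample do not depend on the library total. For this, 4 log2 ratios were compared between the groups with 2-sided exact permutation tests over 70 splits of 4 against 4 samples, for which 0.0286 is the smallest p, and adjusted over the 12 tests. The Serpinb9 to Gzmb ratio averaged -5.32 ± 0.19 (SD, n = 4) without stimulation, -3.90 ± 0.15 in YFP- cells and -5.10 ± 0.57 in YFP+ cells. It was 1.42 higher in YFP- than in unstimulated samples and differed by -1.20 between YFP+ and YFP- samples, without overlap in either case (exact permutation p = 0.0286, adjusted 0.049, for each). YFP+ and unstimulated samples overlapped, with a difference of 0.22 (exact permutation p = 0.486, adjusted 0.648). RNA of the inhibitor was thus highest relative to its target protease in the YFP- samples, where all 4 ratios lay between -4.12 and -3.81.

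The Ctsc to Gzmb ratio, of the activating protease to a protease it activates, averaged -6.15 ± 0.28 without stimulation, -6.65 ± 0.20 in YFP- cells and -7.71 ± 0.81 in YFP+ cells. The YFP+ ratios were below all others (difference -1.06 from YFP- and -1.56 from unstimulated samples, exact permutation p = 0.0286, adjusted 0.049, for each), and YFP- overlapped unstimulated samples (-0.51, exact permutation p = 0.0571, adjusted 0.0857). The Cst7 to Ctsc ratio, of inhibitor to target, averaged 1.40 ± 0.41, 1.22 ± 0.12 and 1.53 ± 0.90 and all groups overlapped (exact permutation p of 0.629 or more). The Serpina3g to Ctsl ratio averaged 6.44 ± 0.99, 3.87 ± 0.27 and 2.64 ± 0.37, and no groups overlapped. Its differences were -2.56 for YFP- and -3.80 for YFP+ against unstimulated samples and -1.24 between the sorted groups (exact permutation p = 0.0286, adjusted 0.049, for each). The first 2 were -1.48 and -2.71 with 1 CPM added to every value.

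**Figure D3:**
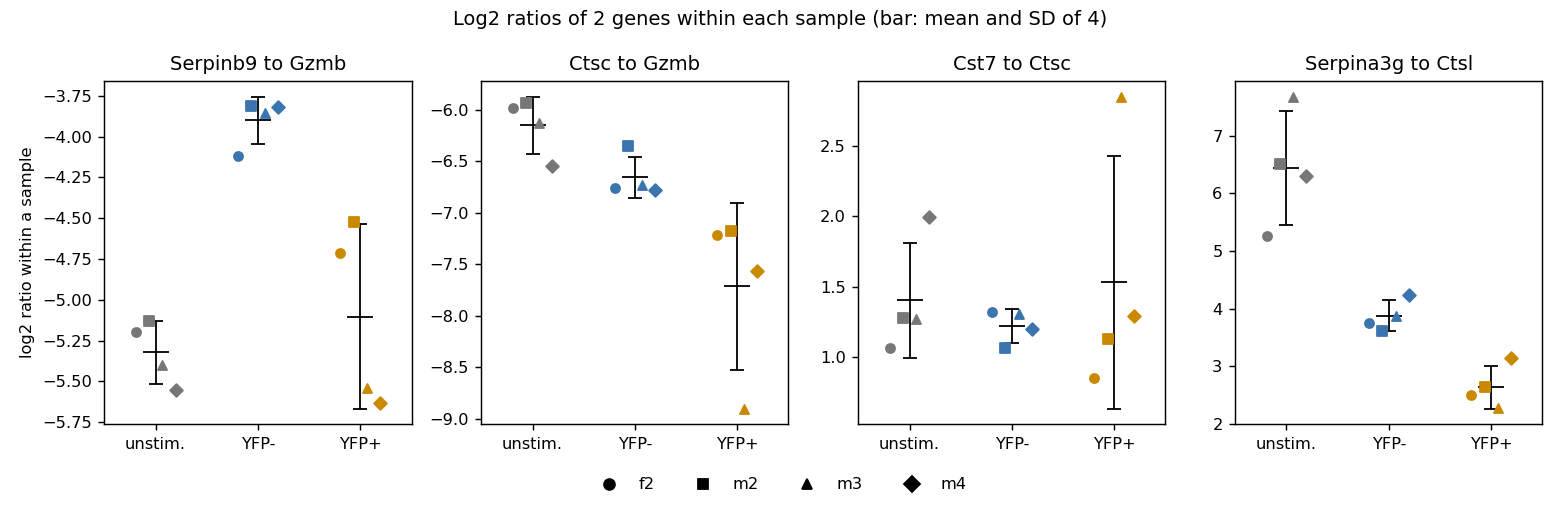
Log2 ratios of 2 genes within each sample (vertical axes, one panel per ratio with its own range) in the 3 groups, with bars for the mean and SD of 4 samples and marker shapes for replicate labels. The Serpinb9 to Gzmb ratio is highest in YFP- samples (mean -3.90) and the Serpina3g to Ctsl ratio falls from 6.44 to 3.87 and 2.64.

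Further genes of the same families were taken from fixed lists that held all granzymes with perforin, and other clade B and A3 serpins, cathepsins and cystatins. All 11 granzyme and perforin genes were tested. Over all genes 30.2% were higher and 20.9% lower in YFP- than in unstimulated samples, and 27.5% and 33.3% in YFP+ samples. Of the 11, 6 were higher and 2 lower in YFP- samples (median 0.89 against 0.14 for all genes). In YFP+ samples 6 were higher and 2 lower (median 1.18 against -0.03). The largest rise was that of Gzme in both (1.35 and 2.18, limma adjusted p = 0.0071 and 0.000148) and the largest fall that of Gzmk (-1.32 and -1.82, limma adjusted p = 0.00406 and 0.00026). Between the sorted groups 2 were higher in YFP+, led by Gzmb, and Gzmm (granzyme M) was lower (-0.63, limma adjusted p = 0.0319), a call lost with quantile normalization, centring, trimmed-mean scaling and without YFP+ m3. The counts were 5 higher and 0 lower with centring, and 1 higher and 0 lower without YFP+ m3. Over all genes 3.28% were higher and 18.5% lower between the sorted groups as deposited.

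Of 23 other clade B serpins 3 passed the filter, and of 9 other A3 serpins 0 did. Of the 3, 1 was higher and 0 lower in YFP- than in unstimulated samples, against 30.2% and 20.9% of all genes. In YFP+ against unstimulated samples 1 was higher and 2 lower, against 27.5% and 33.3%. Between the sorted groups 0 were higher and 1 lower in YFP+, against 3.28% and 18.5%. Serpinb1a, an inhibitor of neutrophil-type serine proteases, was lower in YFP+ samples than in YFP- (-1.50, limma adjusted p = 0.00738) and unstimulated samples (-1.77, limma adjusted p = 0.000554). Serpinb6c, a paralog of Serpinb6a and Serpinb6b that lies beside Serpinb6a, rose in YFP- (1.39, limma adjusted p = 0.000355) and YFP+ samples (1.88, limma adjusted p = 1.44e-05). Serpinb6c was low, at a mean log2 CPM of 0.05 without stimulation and 1.43 and 1.93 in YFP- and YFP+ samples. Its difference between the sorted groups, 0.50 (limma adjusted p = 0.164), passed as higher in YFP+ with quantile normalization (0.82, 0.0221), centring (0.76, 0.0256) and trimmed-mean scaling (0.70, 0.0396). Of its 50-base stretches Serpinb6b shares 1.91% with Serpinb6c, and 0% of its 150-base stretches are shared with any gene.

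Of 12 other cathepsins, legumain included, 7 passed the filter. Between the sorted groups 5 of the 7 were lower in YFP+ and 0 higher (median -0.65 against -0.19 for all genes), the largest fall being that of Ctse, cathepsin E (-1.28, limma adjusted p = 0.00908). That count was 2 with median centring, 3 with trimmed-mean scaling and 3 without YFP+ m3. Against unstimulated samples 4 were lower and 1 higher in YFP+ samples, led by Ctse (-1.58, limma adjusted p = 0.00055) and Ctsz, cathepsin Z (0.40, limma adjusted p = 0.0237, not called with rRNA-like features left out). Without YFP+ m3 the count of lower genes was 3. Ctse was low in all groups, at a mean log2 CPM of 2.28, 1.98 and 0.70 in unstimulated, YFP- and YFP+ samples. In YFP- samples Ctsz was higher (0.50, limma adjusted p = 0.00899) and Ctsd, cathepsin D, lower (-0.58, limma adjusted p = 0.0302), with 5 not called, and 3 were lower with quantile normalization. Without YFP+ m3, 2 were higher and 1 lower. With all samples, the largest called rise of this list in YFP- samples was 0.50, against 3.36 for Ctsl. Over all genes, with all samples, 18.5% were lower and 3.28% higher between the sorted groups. Against unstimulated samples 33.3% of all genes were lower and 27.5% higher in YFP+, and 20.9% and 30.2% in YFP- samples. The macrophage marker sum given above was also lower in YFP+ than in the other samples, and its part in the cathepsin counts was not tested.

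Of 18 other cystatins and stefins 16 were in the table and 3 passed the filter. Cst6, cystatin M/E, was higher in YFP- than in unstimulated samples (1.03, limma adjusted p = 0.00522), in YFP+ than in unstimulated (3.01, limma adjusted p = 3.99e-07) and in YFP+ than in YFP- (1.98, limma adjusted p = 0.000166). Its mean log2 CPM was low, at -0.34, 0.68 and 2.67 in unstimulated, YFP- and YFP+ samples, so these sizes depend on the scale. Cst3, cystatin C, was lower in YFP- (-0.34, limma adjusted p = 0.0211) and in YFP+ (-0.35, limma adjusted p = 0.016) than in unstimulated samples, the latter not with centring or trimmed-mean scaling.

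Each member was also set beside the genes whose log2 CPM followed it most closely over the 12 samples, among 8072 protein-coding genes with a mean log2 CPM of at least 2. The correlations describe 12 points that share libraries and groups and carry no test. Serpinb6b was followed closely by Sec13 (Pearson r 0.996), Serpinb9 by Supv3l1 (0.994) and Atad3a (0.99), and Serpinb9b by Pck2 and Atp6ap2 (0.986 each). Serpinb6a was followed by Sapcd2 (0.976) and Oxct1 (0.972), and Ctsw by Crebrf (0.986) and Ms4a6b (0.983), all of them lowest in YFP+ samples. The pattern of Serpina3f, high in YFP- alone, was most like that of Cxcr6 (0.97), a chemokine receptor, and Coq8a (0.967). Serpina3g was most like Cd200r1 (0.938), an inhibitory receptor, and Dok1 (0.933). Cst7 went with Pus10 (0.975) and Pdzd11 (0.969), Ctsc with Pttg1ip (0.984) and Stard3 (0.983), and Ctsl with Lad1 (0.979) and Penk (0.972), 2 genes with a mean log2 CPM of -3.95 and -3.83 in unstimulated samples.

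**Figure D4:**
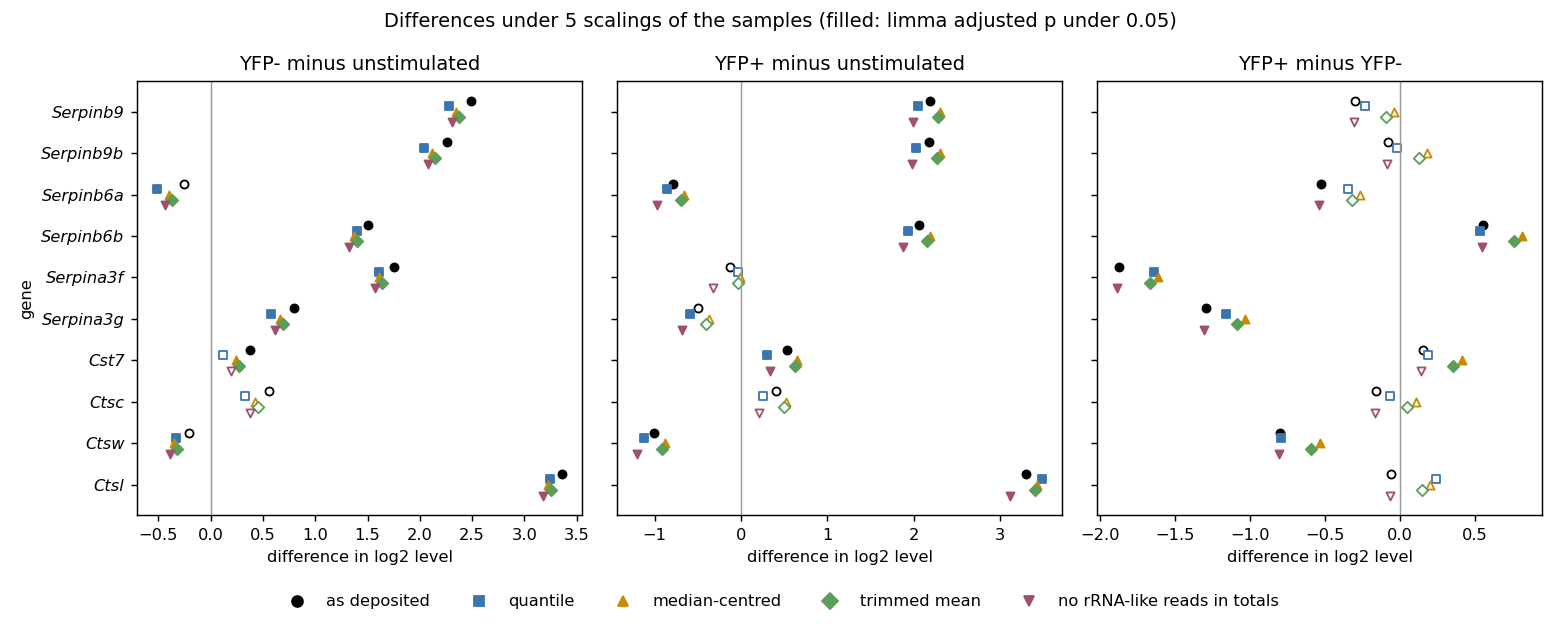
Differences in log2 level of the 10 genes (horizontal axes, each with its own range) in the 3 comparisons under 5 scalings of the samples: as deposited, quantile normalization, median centring, trimmed-mean scaling, and library totals without rRNA-like reads. Markers are filled where the limma adjusted p was under 0.05. Between the sorted groups Serpinb6b, Serpina3f, Serpina3g and Ctsw are filled under all 5, while Serpinb6a (-0.53 as deposited, -0.27 with centring) is filled under 2 of the 5.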

How the data were processed

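RNA-seq libraries of 12 samples (3 groups of 4) were made from 10 ng of total RNA, per the labels' protocols. The submitters' processing notes name bcl2fastq, STAR 2.7.9a, Subread featureCounts 2.0.3 and the build GRCm38. Strand use in counting is not given in the sources used here. The authors deposited their values as moderated log2 CPM, that is log2 of reads scaled to a common total after a small prior is added, in 1 table per the file header. Of its 55774 lines 287 were repeats and were dropped. There were 0 sample columns that belonged to no sample. Whole reads followed from the values for 100% of them (within 0.1 reads) and gave the library totals of 32.1 to 54.2 M. Floors cover counting error only.

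The fit used limma 3.58.1 (lmFit and eBayes with an intensity trend, R 4.3.3) on the deposited log2 CPM of all 12 samples, with 1 coefficient per group, genes with log2 CPM above 0 in 4 or more samples, and Benjamini-Hochberg adjustment over 12364 genes. The call threshold was an adjusted p of 0.05. Levels per kb use exon lengths of GENCODE M21, which held 99.4% of the identifiers and gave the positions. Exact permutation tests, correlations and figures used scipy 1.17.1, pandas 2.3.3, Biopython 1.88, matplotlib 3.10.9 and numpy 2.4.6 in Python 3.11.15. Scripts were tested on simulated data.

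All 10 members are described in every comparison, and of each further list the called genes with the largest rise and fall, with Gzma, Gzmb and Prf1, and 2 genes of like pattern per member, of which 1 is not reported here, nor is 1 marker list. The members, lists and tests were chosen with earlier results of these data known. The 16 alternatives were a replicate block, a fit of the 8 samples of a comparison alone, a stricter filter (log2 CPM above 2) or none, 1 CPM added to every value, quantile normalization, median centring, trimmed-mean scaling (30% and 5% trimmed), 359 rRNA-like features taken out of the totals, no trend, sample weights, a stricter threshold of 0.01, and dropping each of the 4 replicate labels. Leaving out YFP+ m3 alone was chosen after seeing the data. Samples with the same label did not deviate together in every comparison, so they were not paired.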

Additional observations from a re-analysis of the deposited data

Results flagged for a closer look

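Among 42 sets of 4 samples (the 10 genes and 4 ratios in each group), 2 had 1 sample far from the other 3, by a ratio of the gap to the range above Dixon's 95% critical value, where about 2.1 would be expected by chance at 1 in 20. Both were log2 ratios to Gzmb in YFP- samples. The Serpinb9 to Gzmb ratio of f2 was -4.12, below the other 3 (-3.85 to -3.81), with a gap of 0.869 of the range. The Ctsc to Gzmb ratio of m2 was -6.36, above the other 3 (-6.78 to -6.73), with a gap of 0.880 of the range.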

How the results depend on the processing

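Each of the 30 gene differences was recomputed under 17 alternatives. Of the 510 values 455 kept their direction and their side of the threshold, 15 lost the call, 21 gained one and 19 changed sign, and 15 of the 30 differences kept both under every alternative. The sign changes were all in differences that did not pass the test. Between YFP+ and YFP- samples, Serpinb9 came to 0.034 with sample weights. Serpinb9b came to 0.18 with centring, 0.13 with trimmed-mean scaling and 0.24 with weights, and ranged from -0.28 to 0.42 with samples left out. Ctsc came to 0.10, 0.048 and 0.19 under the same 3 settings, and ranged from -0.41 to 0.30 with samples left out. Ctsl came to 0.24 with quantile normalization, 0.20 with centring and 0.15 with trimmed-mean scaling, and ranged from -0.13 to 0.042. Serpina3f against unstimulated samples came to 0.10 with weights and ranged from -0.30 to 0.31, the highest without YFP+ m3, as for Serpinb9b, Ctsc and Ctsl. The cause was not tested. The number of the 10 genes called between the sorted groups was 3 with no filter, which tests more genes, against 5. Over all genes that comparison gave 2691 calls, 1583 with no filter, 1466 at an adjusted p under 0.01, and 1571 to 2397 with samples left out (1571 without the samples labelled m2, 1643 without m4). The Serpina3g to Ctsl differences of -2.56 and -3.80 became -1.48 and -2.71 with 1 CPM added, which compresses low levels.

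With the replicate label as a replicate block, calls over all genes were 3098, 6682 and 7774, against 2691, 6321 and 7522, in the order YFP+ against YFP-, YFP- against unstimulated and YFP+ against unstimulated. Same-label deviations correlated at 0.054 to 0.374, -0.059 to 0.1 and -0.042 to 0.375 across genes. Under the block Serpina3g passed as lower in YFP+ than in unstimulated samples (-0.50, limma adjusted p = 0.0259), and no other call on the 10 genes changed. At the depth of these libraries the counting error bears mostly on Ctsl in unstimulated samples, at 12 to 64 reads, and the 4 samples per group limit the rest. The exact tests on ratios cannot go below 0.0286, and their sign-flip form, paired by label, not below 0.125.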
